A study of Mus musculus with 4 samples.

Results

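Protocadherins are cell-surface adhesion proteins of the cadherin superfamily, and the members described here are the protein-coding genes of GENCODE M21, a gene annotation of the mouse mm10 genome, whose symbol starts with *Pcdh*. This rule found 69 gene records among the 21938 protein-coding genes of the assembled chromosomes. Of these, 57 lie in the 3 tandem clusters on chromosome 18, namely 14 in *Pcdha*, 22 in *Pcdhb* and 21 in *Pcdhg*, and the other 12 stand outside the clusters. The 69 records carry 68 symbols, because 2 records in the *Pcdha* cluster are both named *Pcdha11*. RefSeq names one of them *Pcdha10*.

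The clustered protocadherins give neurons individual surface identities. In *Pcdha* and *Pcdhg*, each variable first exon has its own promoter and is spliced to constant exons shared by the whole cluster, whereas each *Pcdhb* gene is a single coding exon. The alternate exons are chosen promoter by promoter in each neuron through DNA methylation and looping by CTCF and cohesin, while the C-type exons at the end of *Pcdha* and *Pcdhg* are used more uniformly. The non-clustered protocadherins are scattered ordinary genes that act in cell sorting, axon growth and junctions, and several of them are used outside the nervous system.

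Open chromatin was measured by ATAC-seq, in which the Tn5 transposase cuts accessible DNA, in whole hearts of mouse embryos at embryonic day 9.5 (E9.5). The groups were wild type (WT) and *Smyd1-KO*, a conventional null of the gene for the muscle histone methyltransferase SMYD1 that is absent from every cell of the embryo and not from the heart alone. Each group had 2 libraries, and each library was made from 4 pooled hearts, of which 40000 viable cells were used. The comparison asks where chromatin gained or lost accessibility without SMYD1. In one deposited list are 25745 peaks with tags at least 2 times higher in *Smyd1-KO* hearts, called gained peaks here, and in the other 106 WT-enriched peaks. Both lists were called on the combined libraries of a genotype, which leaves the scores and counts without replicate errors, and no test over replicates was possible. The score of a peak is the authors' scaled tag value, which runs in steps of 0.5 in the list of gained peaks and on another scale in the WT list, and the depth of each library is unknown from the lists.

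The tissue label could not be checked from the lists, which hold differing peaks and no levels. Gained peaks lay within 1 kb of a transcription start site (TSS) of 5 of 6 cardiomyocyte markers, with *Nkx2-5* the exception at 5758 bp. They lay there at 1 of 6 endothelial and endocardial markers, 2 of 5 epicardial and mesenchymal, 2 of 5 neural crest, 4 of 9 neural and 0 of 5 erythroid markers, where 48.1% of all protein-coding genes had one. Of the neural markers, *Elavl4*, *Snap25*, *Syn1* and *Map2* had a gained peak and *Tubb3*, *Elavl3*, *Stmn2*, *Neurod1* and *Sox1* had none. Their part in the protocadherin values was not tested, and in whole hearts a change in the share of a cell type cannot be told apart from a change within it. *Smyd1* itself had no gained peak within 1 kb of a TSS, 2 gained peaks inside the gene and no WT-enriched peak.

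A minority of protocadherin genes had a site of higher accessibility in *Smyd1-KO* hearts at a TSS, and the share was lowest in the clusters. In all, 12 of the 69 members, or 17.4%, had a gained peak no farther than 1 kb from a TSS, where 48.1% of all protein-coding genes had one. Among the clustered genes 6 of 57 had one, or 10.5%, and among the non-clustered genes 6 of 12, or 50%. The clustered genes were *Pcdhac2*, *Pcdhga2*, *Pcdhga3*, *Pcdhga6*, *Pcdhga10* and *Pcdhgc3*, and the non-clustered genes were *Pcdh1*, *Pcdh9*, *Pcdh10*, *Pcdh11x*, *Pcdh15* and *Pcdh17*. The median distance from a member's TSS to the nearest gained peak was 128 kb for the clustered genes, 1.15 kb for the non-clustered genes and 2.2 kb for all protein-coding genes. Within 500 bp the count of members was 11 of 69 (46.4% of all genes), and within 10 kb it was 23 of 69, or 33.3% (59.6% of all genes). A 5′ end was counted as CpG-rich where the 500 bp on each side had over 50% GC and a ratio of observed to expected CpG of at least 0.6. Genes of a cluster are neighbours and are not independent of each other, so the shares are descriptions.

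**Figure D1:**
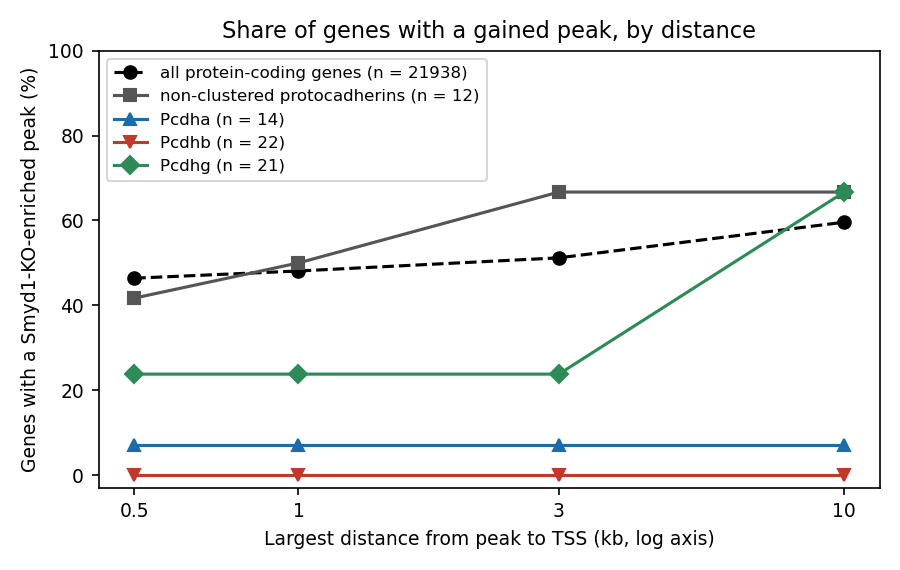
Percentage of genes with a *Smyd1-KO*-enriched peak (vertical axis) within a given distance of a TSS (horizontal axis, kb, log scale) for the genes of each cluster, the non-clustered protocadherins and all protein-coding genes. *Pcdhb* stays at 0 at every distance and *Pcdha* at 7.14%, while *Pcdhg* goes from 23.8% within 3 kb to 66.7% within 10 kb, where neighbouring genes can share a peak.

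No member had a WT-enriched peak within 1 kb or within 10 kb of a TSS, against 0.00456% of all genes within 1 kb and 0.0775% within 10 kb. The WT-enriched peak nearest to any member was 3921 kb away, from *Pcdh15*, and for the members on chromosome 18 the nearest was 5373 kb away, from *Pcdh12*. All differential peaks at protocadherin genes were gained peaks, as were nearly all in the lists, with 25745 gained and 106 WT-enriched peaks.

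The *Pcdha* cluster, from its first to its last base, is chr18:36930184-37187661, a stretch of 257 kb. It held 2 gained peaks, or 0.777 per 100 kb, against 0.972 per 100 kb over the gap-free genome. One lay at chr18:37143752-37143900 in the 5′ UTR of *Pcdhac2*, the last C-type exon, 249 bp downstream of its TSS, with a score of 129.5. This peak had 71.8% GC and 14 CpG dinucleotides. The other lay at chr18:37178403-37178551 with a score of 136 and covered the TSS of *Gm10544*, a noncoding transcript, 34900 bp beyond the TSS of *Pcdhac2*. There was no gained peak inside 1 kb for any of the 12 alternate *Pcdha* records, which are *Pcdha1* to *Pcdha9*, both *Pcdha11* records and *Pcdha12*, or for *Pcdhac1*, where 48.1% of all genes and 25.1% of those without a CpG-rich 5′ end, the class of all 13, had one. The 5′ ends of all 13 sat in a stretch of 342 kb, chr18:36801816-37143752, without a gained peak between its ends, while their gene bodies, which run on to the constant exons, held both gained peaks of the cluster. At these 13 genes the gained peak nearest to a TSS was 53.7 kb away for *Pcdhac1* and 124 kb to 170 kb away for the alternate exons. *Pcdha7*, near the middle of that 342 kb stretch, was farthest.

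The *Pcdhb* cluster, at chr18:37264938-37524479 and 260 kb long, held no gained peak. None of *Pcdhb1* to *Pcdhb22* had one within 10 kb, against 59.6% of all genes. Within 1 kb the share was 25.1% over genes without a CpG-rich 5′ end, the class of all 22. The distance from a *Pcdhb* TSS to the nearest gained peak ran from 86.4 kb for *Pcdhb1* to 233 kb for *Pcdhb10*, with a median of 157 kb. The whole cluster fell in a stretch of 466 kb without a gained peak, chr18:37178551-37644186, which began at the last peak of *Pcdha* and ended at the promoter of *Taf7*, a subunit of the general transcription factor TFIID. When the genome was tiled into 10204 windows of 260 kb, 3149 of them, or 30.9%, held no gained peak. Of the 18 windows in which at least 20 protein-coding genes began, 1 held none, and it covered a keratin-associated protein gene cluster on chromosome 11. The *Pcdhb* cluster itself, with 22 genes in a like length, straddled the window borders and was not among these 18. The windows were not matched to *Pcdhb* for CpG content at the 5′ ends.

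**Figure D2:**
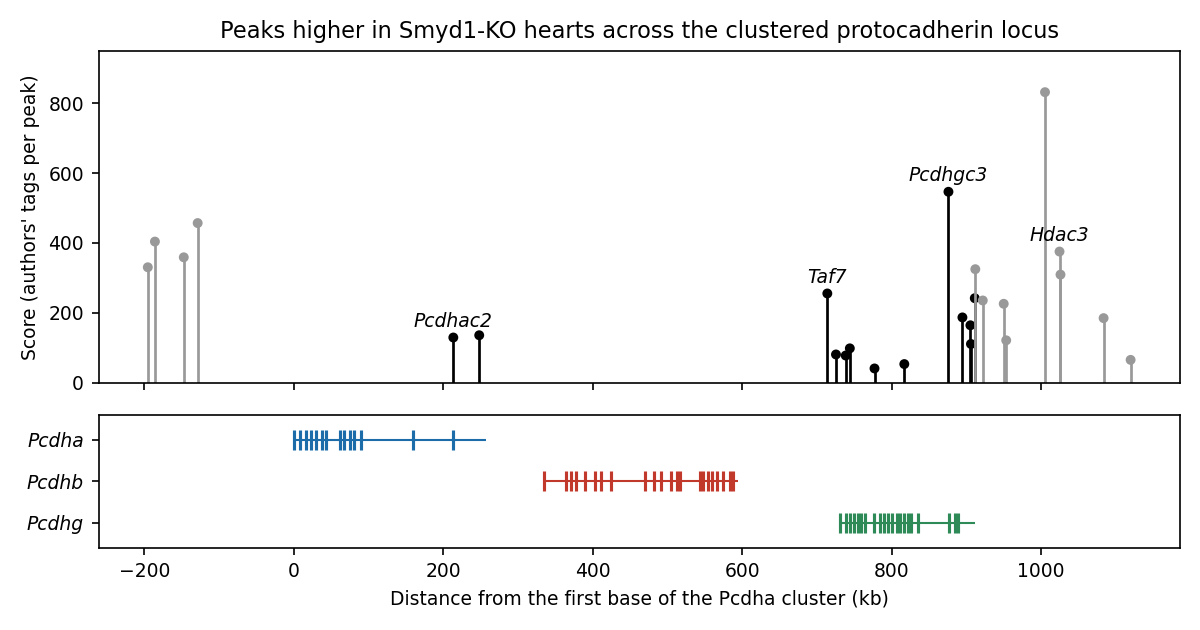
Gained peaks across the clustered protocadherin locus and 300.0 kb on either side. Upper panel, score of each peak (authors' tags per peak) against distance from the first base of *Pcdha* (kb), black from the start of *Pcdha* to the end of *Pcdhg* and grey outside; lower panel, gene starts (ticks) and span (line) of each cluster. No peak stands over the *Pcdhb* genes, and the tallest black peak, at 546.5, is at *Pcdhgc3*.

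The *Pcdhg* cluster is shorter, 180 kb at chr18:37661793-37841873, and held 9 gained peaks, or 4.998 per 100 kb. Their scores ran from 41 to 546.5 with a median of 111. Within 1 kb of a TSS, 4 of 12 gamma A genes, 0 of 6 gamma B genes and 1 of 3 C-type genes had a gained peak, together 5 of 21 or 23.8%, against 48.1% of all genes and 25.1% of genes without a CpG-rich 5′ end, the class of 19 of the 21. The gamma A genes without one were *Pcdhga1*, *Pcdhga4*, *Pcdhga5*, *Pcdhga7*, *Pcdhga8*, *Pcdhga9*, *Pcdhga11* and *Pcdhga12*, the gamma B genes were *Pcdhgb1*, *Pcdhgb2*, *Pcdhgb4*, *Pcdhgb5*, *Pcdhgb6* and *Pcdhgb7*, and the C-type genes were *Pcdhgc4* and *Pcdhgc5*. These 16 genes lay 4.26 kb to 18.2 kb from the nearest gained peak, closer than any *Pcdhb* gene and any *Pcdha* gene other than *Pcdhac2*.

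*Pcdhgc3*, the first C-type gamma exon, had the highest score of any clustered gene. Its peak at chr18:37806261-37806409 scored 546.5 and covered its TSS, in an exon of *Pcdhgc3* that overlaps an exon of the antisense gene *BC037039*. ATAC-seq does not tell strands apart, so the peak cannot be given to one of these genes alone. The gamma A peaks were far lower. *Pcdhga3* had 98.5 at chr18:37674294-37674442, over its TSS and 5′ UTR. *Pcdhga2* had 78 at chr18:37668791-37668939, 14 bp upstream of its TSS. The 2 lowest lay in coding sequence of a variable exon, with 53.5 at chr18:37747194-37747342, 201 bp downstream of the *Pcdhga10* TSS, and 41 at chr18:37707330-37707478, 291 bp downstream of the *Pcdhga6* TSS.

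The other 4 gained peaks inside *Pcdhg* lay downstream of the last variable exon. One, with a score of 187 at chr18:37824958-37825106, overlapped coding sequence of a constant exon shared by the *Pcdhg* genes, 221 bp from the TSS of the noncoding transcript *Gm38182*. Scores of 164.5 and 111 belonged to a pair in the introns between constant exons, at chr18:37835624-37835772 and chr18:37836364-37836512. The last, with 242 at chr18:37841481-37841629, was in the shared 3′ UTR. All 4 scored at or above the 111 median of the cluster and above each gamma A promoter peak. Because the constant region belongs to every *Pcdhg* gene, these peaks cannot be given to a single member.

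Genes on either side of the clusters also had gained peaks, where 48.1% of all protein-coding genes had one within 1 kb. In the 300.0 kb before *Pcdha*, 5 of 15 protein-coding genes had a gained peak within 1 kb, namely *Tmco6*, *Ndufa2*, *Ik*, *Hars* and *Hars2*, and the 4 gained peaks there scored 330.5 to 457, below *Pcdhgc3* and above every other peak inside the clusters. In the 300.0 kb after *Pcdhg*, 3 of 5 had one, *Diaph1*, *Hdac3* and *Rell2*, and the 9 gained peaks there scored 65.5 to 831.5, a range that takes in most scores inside *Pcdhg*. The highest covered a TSS of *Diaph1*, a formin that nucleates actin filaments. Between *Pcdhb* and *Pcdhg* the *Taf7* promoter peak scored 255.5, and a further peak of 81 covered the TSS of the noncoding gene *3222401L13Rik*, 5882 bp before *Pcdhga1*. Between *Pcdha* and *Pcdhb*, over 77.3 kb, there was none.

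Among the non-clustered genes the delta-1 group, with a long cytoplasmic tail and conserved motifs, had a gained peak within 1 kb at 3 of 4 genes (*Pcdh1*, *Pcdh9*, *Pcdh11x*), the delta-2 group at 2 of 5 (*Pcdh10*, *Pcdh17*) and the remaining genes at 1 of 3 (*Pcdh15*), where 48.1% of all genes and 77% of those with a CpG-rich 5′ end had one. The sequences of 6 gained peaks at 4 of these genes are shown to let a reader see what such intervals look like. The *Pcdh17*, *Pcdh9* and nearer *Pcdh10* peaks count among those within 1 kb, whereas the farther *Pcdh10* peak and both *Pcdh7* peaks lie outside it, and the peaks of *Pcdh1*, *Pcdh11x* and *Pcdh15* are described without sequence. They were read from the GRCm38 genome, the same sequence as mm10, on the strand of the gene and 5′ to 3′, with CpG dinucleotides in capitals. The *Pcdh17* and *Pcdh9* intervals are chr14:84443352-84443500 and chr14:93890764-93890912, on the plus and the minus strand. The *Pcdh10* intervals are chr3:45378196-45378344 and chr3:45375855-45376003, and those of *Pcdh7* are chr5:57715846-57715994 and chr5:57714902-57715050, all on the plus strand.
Pcdh17, 63 bp upstream: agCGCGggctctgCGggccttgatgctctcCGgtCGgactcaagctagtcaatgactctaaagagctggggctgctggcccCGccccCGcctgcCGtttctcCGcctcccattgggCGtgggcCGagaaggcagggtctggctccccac
Pcdh9, 85 bp upstream: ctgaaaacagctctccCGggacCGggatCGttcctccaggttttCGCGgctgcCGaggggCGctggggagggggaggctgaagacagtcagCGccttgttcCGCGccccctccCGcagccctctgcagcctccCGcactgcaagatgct
Pcdh10, 54 bp upstream: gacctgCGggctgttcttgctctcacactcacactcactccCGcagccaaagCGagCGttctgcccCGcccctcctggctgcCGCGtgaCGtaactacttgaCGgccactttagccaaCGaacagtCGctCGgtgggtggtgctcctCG
Pcdh10, 2395 bp upstream: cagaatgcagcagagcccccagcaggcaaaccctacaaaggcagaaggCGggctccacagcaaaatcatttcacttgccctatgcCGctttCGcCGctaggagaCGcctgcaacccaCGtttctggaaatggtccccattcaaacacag
Pcdh7, 1973 bp upstream: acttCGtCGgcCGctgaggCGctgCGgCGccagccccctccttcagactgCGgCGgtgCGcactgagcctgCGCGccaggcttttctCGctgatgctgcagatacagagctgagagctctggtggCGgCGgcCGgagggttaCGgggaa
Pcdh7, 2917 bp upstream: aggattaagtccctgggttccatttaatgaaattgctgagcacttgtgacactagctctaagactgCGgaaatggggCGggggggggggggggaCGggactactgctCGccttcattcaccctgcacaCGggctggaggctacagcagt

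The strongest gained peak of all members was at *Pcdh17*, a delta-2 protocadherin of axons and synapses. It scored 595, ended 63 bp upstream of the TSS in intergenic sequence, and held 11 CpG dinucleotides in 149 bp. *Pcdh9*, a delta-1 gene of 877 kb, followed with 509.5 at 85 bp upstream and 12 CpG. A further 6 gained peaks lay in introns of *Pcdh9*, with scores from 36.5 to 69. *Pcdh10*, which links adhesion to actin regulation through Nap1, had 294.5 at 54 bp upstream, with 13 CpG and overlapping an exon of the noncoding gene *2610316D01Rik*, and a second, lower peak of 149.5 at 2395 bp upstream with 6 CpG.

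*Pcdh1*, an epithelial delta-1 protocadherin on chromosome 18 beyond *Pcdhg*, had a pair of gained peaks. The one at chr18:38211765-38211913 scored 201.5 and lay in its 5′ UTR, 57 bp downstream of a TSS. The one at chr18:38212765-38212913 scored 194.5 at 712 bp upstream, in an intron of *2010320O07Rik*. *Pcdh15*, a component of the tip links of inner ear hair cells, had 182 at chr10:73100045-73100193, 592 bp downstream of a TSS in an exon of one of its transcripts. That peak did not count when protein-coding transcripts alone were used. A second, intronic peak of *Pcdh15*, at chr10:74640948-74641096 and 9114 bp from a TSS, scored 43, and 66.7% of its 36-base words recurred elsewhere in the genome. *Pcdh11x*, the X-linked delta-1 gene, had the lowest promoter score of the group, 90 at chrX:120290270-120290418 over its TSS.

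The other 6 non-clustered genes had no gained peak within 1 kb. *Pcdh7*, a delta-1 gene whose cytoplasmic tail binds SET and protein phosphatase 1, was nearest after *Pcdh20*. Its pair of upstream peaks scored 346.5 at 1973 bp and 322.5 at 2917 bp, and 6 weak intronic peaks of 36 to 108.5 lay in its 415 kb body. In the intronic peak of 36, 65.8% of the 36-base words recurred elsewhere in the genome. *Pcdh20* had a peak of 89 in its coding sequence, at chr14:88469492-88469640 and 1706 bp downstream of a TSS. The nearest gained peaks were 12.2 kb away for *Pcdh12*, an endothelial protocadherin, 33.3 kb for *Pcdh8*, 113 kb for *Pcdh18* and 293 kb for *Pcdh19*. The member peaks just inside the 1 kb limit were those of *Pcdh15* at 592 bp and *Pcdh1* at 712 bp, and just outside it those of *Pcdh20* at 1706 bp and *Pcdh7* at 1973 bp. Within 3 kb the non-clustered count was 8 of 12, or 66.7%, against 51.2% of all genes.

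**Figure D3:**
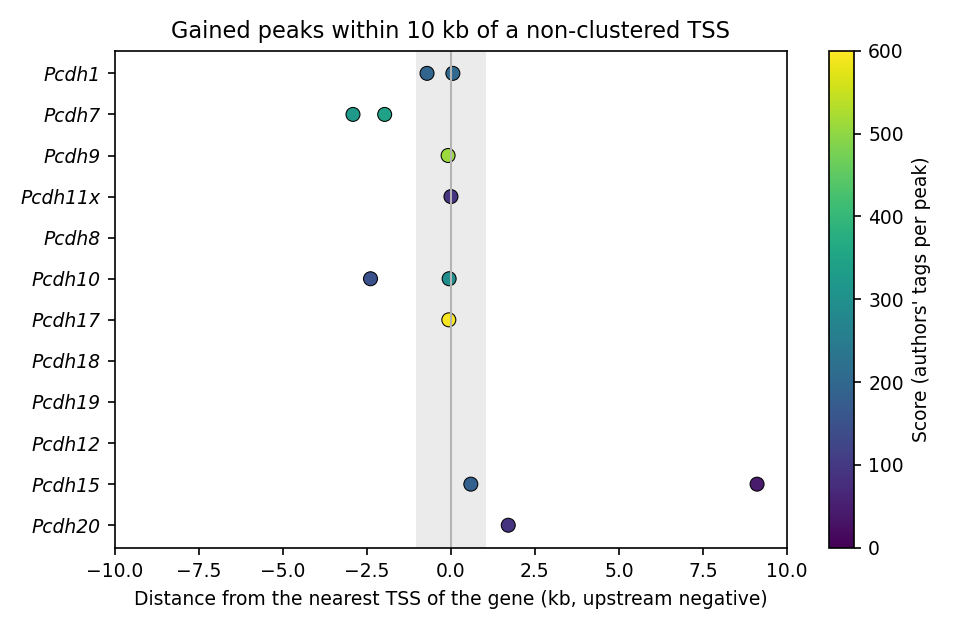
Gained peaks within 10 kb of a TSS of each non-clustered protocadherin. Horizontal axis, distance of the nearer peak edge from the nearest TSS of the gene (kb, upstream negative, grey band within 1 kb); colour, score (authors' tags per peak). *Pcdh17* and *Pcdh9* have the highest scores at their TSS, the pair at *Pcdh7* stands outside the band, and *Pcdh8*, *Pcdh18*, *Pcdh19* and *Pcdh12* have no peak in range.

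Most gained peaks at members scored below the median of gained promoter peaks. Promoter peaks at genes without a CpG-rich 5′ end were not scored apart. The 11331 gained peaks within 1 kb of a protein-coding TSS had a median score of 420, with quartiles of 264.5 and 639. The 6 at clustered genes had a median of 88.2 and ran from 41 to 546.5, and the 7 at non-clustered genes had a median of 201.5 and ran from 90 to 595. *Pcdh17* stood at percentile 71.2 of promoter peaks by score, *Pcdhgc3* at 66.7, *Pcdh9* at 62.2 and *Pcdh10* at 29.8. The peaks of *Pcdh1* stood at 15.7 and 14.8, that of *Pcdh15* at 13.2 and that of *Pcdh11x* at 3.69. The other 5 clustered genes stood between percentile 0.278 (*Pcdhga6*) and 7.35 (*Pcdhac2*). With peaks at or above the median score of the list alone, *Pcdhgc3* remained as 1 of 57 clustered genes and 5 of 12 non-clustered genes kept a peak, against 43.6% of all genes.

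**Figure D4:**
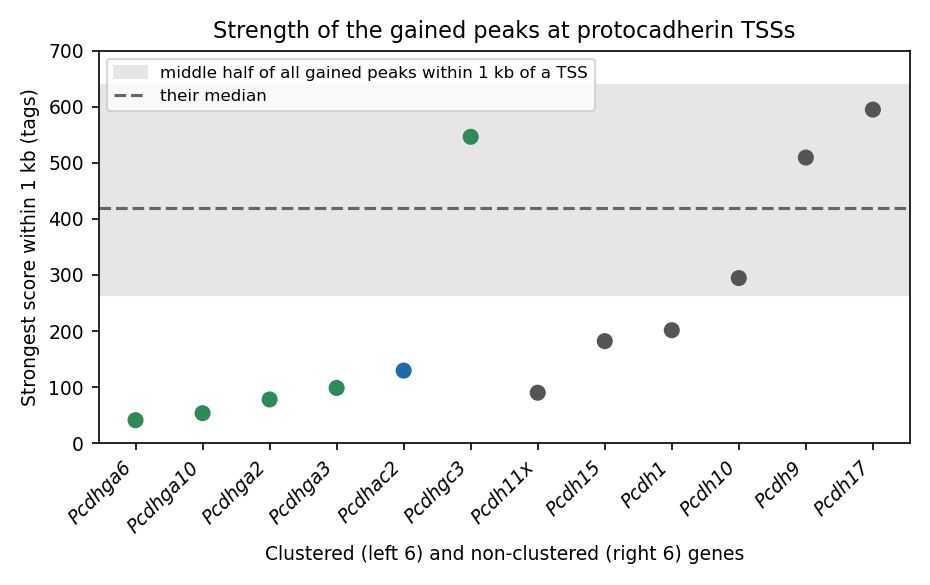
Strongest gained peak score within 1 kb of a TSS (vertical axis, authors' tags per peak) for the 6 clustered and the 6 non-clustered protocadherins that had one. The grey band spans the quartiles of all gained promoter peaks, 264.5 to 639, and the dashed line their median, 420. *Pcdhgc3* is the clustered gene inside the band.

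Base composition differed along the family. A CpG-rich 5′ end was present in 3 of 57 clustered genes, the C-type *Pcdhac2*, *Pcdhgc3* and *Pcdhgc4*, and in 8 of 12 non-clustered genes. In all genes, 77% of the 9740 CpG-rich and 25.1% of the 12198 other 5′ ends had a gained peak. CpG-rich members had one at 2 of 3 clustered and 5 of 8 non-clustered genes. Of the members without a CpG-rich 5′ end, 4 of 54 clustered genes (7.41%) and 1 of 4 non-clustered genes, *Pcdh11x*, had one. The median CpG ratio was 0.682 in *Pcdha*, 0.378 in *Pcdhb*, 0.594 in *Pcdhg*, 0.665 in the non-clustered genes and 0.552 in all genes, and median GC was 45.4%, 41.3%, 47.1%, 56.9% and 54.7%. *Pcdha* had many CpG for its low GC content, and *Pcdhb* had low values of both.

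**Figure D5:**
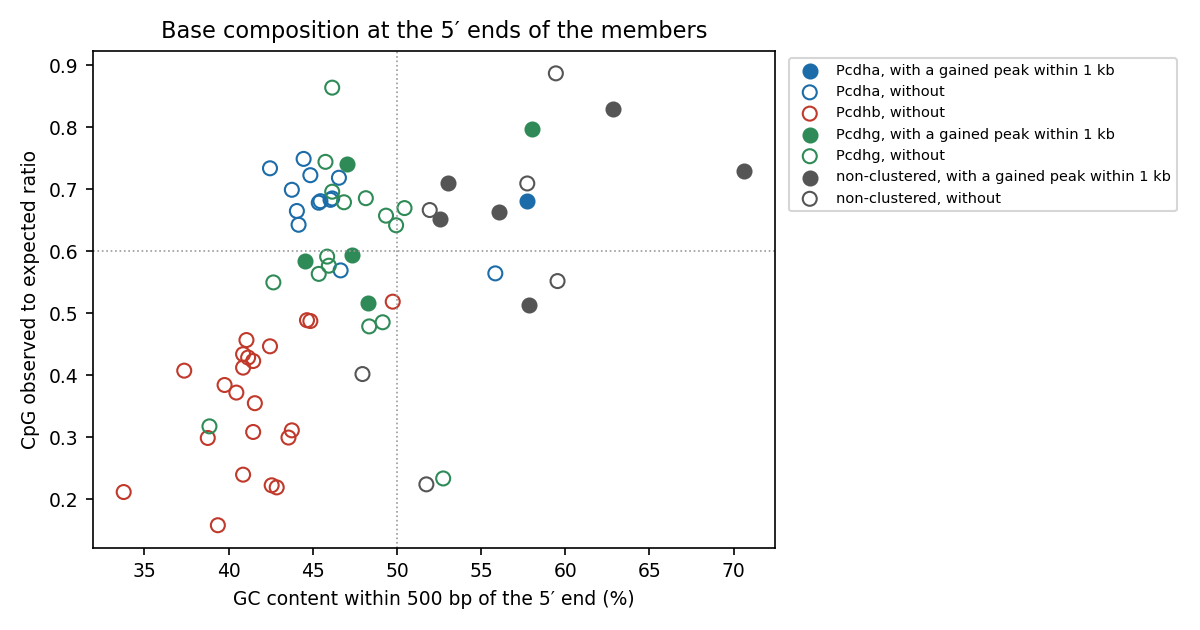
GC content (horizontal axis, %) and observed to expected CpG ratio (vertical axis) within 500 bp of the 5′ end of each member, coloured by cluster, filled where a gained peak lay within 1 kb. Dotted lines mark the limits for a CpG-rich end. Clustered genes sit left of 50% GC apart from C-type genes, and *Pcdhb* has the lowest ratios as a group.

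The number of TSSs per gene also differed between the groups, and its part in the shares was not tested. The median was 1 in the clustered genes, 5 in the non-clustered genes and 3 in all genes. Among genes with at most 2 TSSs, 5 of 51 clustered and 1 of 3 non-clustered members had a gained peak, where 25.6% of 8890 such genes did. Stretches shared between neighbouring copies were also counted. Within 1 kb of the 5′ end, a median of 10.4% of 36-base words in *Pcdha*, 0.0254% in *Pcdhb*, 1.17% in *Pcdhg* and 0% in the non-clustered genes recurred elsewhere in the genome. The highest value of any member was 24.4%, at *Pcdha7*, and in *Pcdhb* 16 of 22 genes had at most 10% of recurring words. How the authors treated reads with several positions is not given in the sources used here, and the part of recurring sequence in these counts was not tested.

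A pair of sequence patterns linked to protocadherin promoters was searched on both strands as fixed strings, independently, so that matches may overlap. CGCT, the core of the conserved sequence element of clustered promoters, was in 14 of 14 *Pcdha*, 21 of 22 *Pcdhb*, 20 of 21 *Pcdhg* and 10 of 12 non-clustered promoters, taken as 250 bp before to 50 bp after the 5′ end, and in 67.1% of all promoters of that length. A CTCF consensus string, read as CC, any base, C, any base, AG, any 2 bases and GGC, was in 1 of 69 of these promoters, that of *Pcdhac1*, and in 2.74% of all. Within 1 kb on either side of the 5′ end it was at 10 of 14 *Pcdha* genes, 0 of 22 *Pcdhb* genes, 5 of 21 *Pcdhg* genes and 1 of 12 non-clustered genes, against 10.6% of all genes. The 10 in *Pcdha* were *Pcdha1*, *Pcdha2*, *Pcdha4*, *Pcdha5*, *Pcdha6*, *Pcdha7*, *Pcdha8*, *Pcdha9*, *Pcdha12* and *Pcdhac1*, and none of them had a gained peak within 1 kb. Of the 2321 genes with the string, 1489 had one, a set not split by CpG content. None of the 10 *Pcdha* genes had a CpG-rich 5′ end, and their 5′ ends lay in the same stretch without a gained peak. The part of the string in this absence was not tested. In *Pcdhg* the string was at *Pcdhga5*, *Pcdhga6*, *Pcdhga8*, *Pcdhga10* and *Pcdhga11*, of which *Pcdhga6* and *Pcdhga10* had a gained peak.

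The CTCF string was also searched in the gained peaks themselves. It was in the coding peak of *Pcdhga6*, 1 of the 11 gained peaks inside the clusters (9.09%), in the upstream peak of *Pcdh1* at 712 bp, and in the distal *Pcdh10* peak printed above, at its bases 16 to 27. Counts this small do not separate the members from all gained peaks, of which 5.69% held it, with 3.59% within 1 kb of a protein-coding TSS and 7.35% farther away. A match to these letters is a description of the sequence and does not show binding.

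Genes that act with protocadherins were compared as lists. Of 45 other genes of the cadherin superfamily, 18, or 40%, had a gained peak within 1 kb, against the 48.1% of all genes. A CpG-rich 5′ end was present in 21 of the 45, of which 12 had a gained peak, against 77% of all CpG-rich genes. The highest summed scores within 1 kb were those of *Cdh2* (N-cadherin, the classical cadherin of heart muscle) at 950.5, *Celsr3* at 910.5 and *Celsr1* at 850, both large transmembrane cadherins of planar polarity. The lowest among those with a peak were *Dsc2*, a desmosomal cadherin, at 68.5, *Cdh12* at 100.5 and *Cdhr1* at 119.5. Beside this 40%, the clustered members stood at 10.5% and the non-clustered members at 50%.

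All 18 listed regulators of clustered protocadherin choice had a gained peak at their own promoters, against 48.1% of all genes and 77% of genes with a CpG-rich 5′ end. These are genes for CTCF, cohesin and its loaders, DNA methyltransferases and chromatin repressors, and 15 of 18 had a CpG-rich 5′ end. Summed scores were highest for *Stag1*, a cohesin subunit, at 1453.5, *Ctcf* at 932.5 and *Smchd1*, a repressor of the clusters, at 918, and lowest for *Setdb1*, an H3K9 methyltransferase, at 287.5, *Rad21*, a cohesin subunit, at 433 and *Mau2*, part of the cohesin loader, at 433.5. Of 20 intracellular partners, 14 of them with a CpG-rich 5′ end, 18, or 90%, had one. Their highest summed scores were those of *Abl1* at 1354, *Axin1* at 1235 and *Set* at 1194. *Cyfip2*, of the WAVE actin complex, and *Ctnnb1*, for beta-catenin, had none, and *Ptk2b*, a kinase that binds protocadherin tails, had 126.5. None of the genes in these lists had a WT-enriched peak within 1 kb.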

How the data were processed

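The deposited signal of the ATAC-seq peaks is the authors' scaled tag value per peak (HOMER 4.10.3) on mm10 after BWA-MEM alignment, from pooled libraries and with a 2-fold limit between genotypes. The authors' scaling differed between the lists, so scores were not compared across them. The study's methods give a sequencing depth per sample, but the lists hold no library totals or replicate values. The handling of duplicates, Tn5 offset and multiply mapped reads is not given in the sources used here.

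From these lists, the distance of the nearer peak edge to any TSS of GENCODE M21 was computed (Python 3.11.15, pandas 2.3.3, numpy 2.4.6) and tested on simulated positions. Coordinates count from 1. A gene was counted with a peak within 1 kb. Sequence came from RefSeq GRCm38. Shares over all protein-coding genes served as background, and no test was run, since pooled lists hold no replicates. Members, gene lists and limits were chosen with earlier results of these data known. Every member was accounted for by name or in a named range. Of the lists, the text names the 3 highest and 3 lowest summed scores (for cadherins, the lowest among genes with a peak), and the neural markers and other markers named were chosen after values were seen. Windows of 500 bp to 10 kb, other TSS sets, score and uniqueness limits and cluster spans were tried as alternatives.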

Additional observations from a re-analysis of the deposited data

How the results depend on the processing

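Under other settings 48 values were recomputed. Of the 35 whose reported value was above 0, 29 were within 1.5 times of it, and the 13 with a reported value of 0 also came out at 0. Within 10 kb the count of members with a gained peak was 23 and that of clustered members 15, with all the added clustered genes in *Pcdhg*, against 59.6% of all genes. In this window neighbours can share a peak, as *Pcdhgb6* and *Pcdhgb7* shared that of *Pcdhga10*. With peaks at or above the median score alone, 6 members, 1 clustered member, 0 peaks in *Pcdha* and 3 in *Pcdhg* were counted, against 43.6% of all genes with such a peak within 1 kb. The *Pcdhb* cluster stayed at 0 gained peaks in the settings run, and so did members with a WT-enriched peak. RefSeq start sites, chosen after the data were seen, gave 12 members with 11 shared, gaining *Pcdh7* and losing *Pcdh15*. No paired analysis was possible because the lists pool the libraries, and for that reason no replicate could be left out. Accessibility that did not differ between genotypes was not analysed here, so a promoter without a gained peak may be open or closed in both.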
